A study of Drosophila mojavensis with 172 samples.

Results

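The 150 transcripts with the highest signal at every life stage were examined, out of 14528 transcripts measured in whole Drosophila mojavensis, a fly that breeds in rotting cactus. The log2 signal of a transcript was averaged at each of 13 stages over the 4 combinations of population and diet, with equal weight, and transcripts were ranked by the lowest of these stage means. The first 150 ranks are the members described here. The members were therefore chosen by their stage means, and those means are given as a description with no test. The files do not pair the transcript IDs with gene names, so members are named by ID only. Signals of different transcripts also depend on their probes, so a high signal is not a measured number of RNA molecules, and the ranking is one of signal and not of abundance.

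The series holds 172 single-colour NimbleGen arrays of total RNA from wild-type flies of 2 populations, which were kept in bottle cultures on laboratory media made from 1 of 2 host cacti. Punta Prieta flies come from Baja California (90 arrays) and Las Bocas flies from Sonora (82 arrays). Organ pipe medium was used for 75 arrays and agria medium for 97. The stages are 6-hour eggs (E6), for which the diet is that of the mothers, the larval instars L1, L2 and L3, early pupae (EP), late pupae (LP), and adult females of 0, 3, 4, 6, 10, 14, 18 and 24 days. Sex is not given for the stages before the adult. Each of the 54 groups has 1 to 5 arrays, and 8 groups have 1. Only 1 array of each diet exists at 4 days, both of Punta Prieta, and the rule did not use them. The labels do not say whether arrays of a group come from separate cultures. P-values therefore refer to the spread among these arrays, part or all of which may be technical.

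In insects and other animals, the transcripts that are highest in whole-body RNA throughout life often belong to machinery that every growing cell needs. Ribosomal proteins build the ribosome, elongation factors move it along the message, actins and tubulins form the cytoskeleton, and enzymes of glycolysis and the respiratory chain supply ATP. In eggs much of this RNA was laid down by the mother, and in mature females the ovary makes it for the next eggs. Which of the members belong to such classes was not tested, because no names are paired with the IDs.

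Some arrays stood apart and touch most of the values below. On 20 arrays the SD of all log2 values was under 1.4, a limit set after the data were examined, and 16 of these are larval and 4 pupal. They are called narrow arrays here. Their SD was as low as 1.28, and it reached 1.77 among the other 152 arrays, while the median of all transcripts stayed between 11.12 and 11.34 on narrow arrays and between 10.96 and 11.48 on the others. The SD is taken over all transcripts, members included. No pair of arrays held identical values.

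The members' lowest-stage means ran from 13.70 to 15.54 on the log2 scale, with a median of 14.20. The median over all transcripts was 10.08. The first rank was held by FBtr0161682, whose lowest, median and highest values over the 172 arrays were 14.99, 15.75 and 15.93. It had the highest stage mean of all members at 12 of the 13 stages, the exception being L3, where FBtr0171770 was higher at 15.65. FBtr0161682 also had the smallest pooled SD within groups of any member, 0.12. Its values lay at the top of the range, where the highest value of all transcripts on any array was 15.93, and whether saturation held its spread down was not tested. Its own stage means lay between 15.54 in eggs and 15.85 at 10 days. On the array where it was lowest, an egg array, it still exceeded 99.3% of all transcripts.

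The next 5 ranks were FBtr0171770, with a lowest-stage mean of 15.29, FBtr0166212 with 15.25, FBtr0166368 with 15.17, FBtr0171454 with 15.15 and FBtr0166037 with 15.06. At the other end, the members just inside the limit were FBtr0168604 at 13.71, FBtr0161166 at 13.71 and FBtr0172574 at 13.70. Just outside it were FBtr0173513 at 13.70, FBtr0165366 at 13.68 and FBtr0165103 at 13.68. The limit thus separates transcripts with nearly equal values.

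Members varied little over life by comparison with the array as a whole. The span, which is the highest minus the lowest stage mean, had a median of 0.79 in the members and ran from 0.28 to 1.67. Over all transcripts the median span was 1.97. A span of at least 1 log2 unit occurred in 31 of 150 members (20.7%), against 13196 of 14528 transcripts (90.8%), and in 111 of the 150 transcripts ranked 151 to 300 (74%), whose median span was 1.16. A transcript whose lowest stage is already near the top of the scale has little room above it, and the rule chose on that lowest stage, so these counts describe the members and are no test. The smallest spans were those of FBtr0171454 and FBtr0171741, both 0.28.

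The widest spans took several forms. FBtr0172996 had the widest, 1.67, with its lowest mean in early pupae at 13.86, 14.95 in late pupae and its highest mean of 15.53 in newly eclosed females. FBtr0171051 had a similar course, at 13.96 in early pupae and 15.49 at 0 days. Both were lowest at the same stage and highest at the same age.

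Other members of wide span ran differently. FBtr0170900 was highest in eggs at 15.26, stood at 14.18 in L1, 14.17 in L2 and 13.76 in L3, and reached 15.17 at 10 days. FBtr0161585 ran the other way, with 15.53 in L1 and 15.49 in early pupae, and its lowest mean of 14.09 at 6 days. FBtr0161210 was lower in eggs, L1, early and late pupae (14.38 to 14.56) than in L2 (15.25), in L3 (15.31) and in adults. Its highest mean was 15.71 at 18 days.

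Over the 150 members, the median stage mean was 14.90 in eggs, 14.33 in L1, 14.75 in L2, 14.52 in L3, 14.67 in early pupae and 14.58 in late pupae. In adults it lay between 14.86 at 6 days and 15.00 at 18 days. L1 was the lowest stage for 81 members, L3 for 18 and early pupae for 16. The highest stage was 18 days for 41 members, early pupae for 26, eggs for 19, and 0 and 24 days for 18 each. The plot of stage means shows these sets as blocks of higher values.

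**Figure D1:**
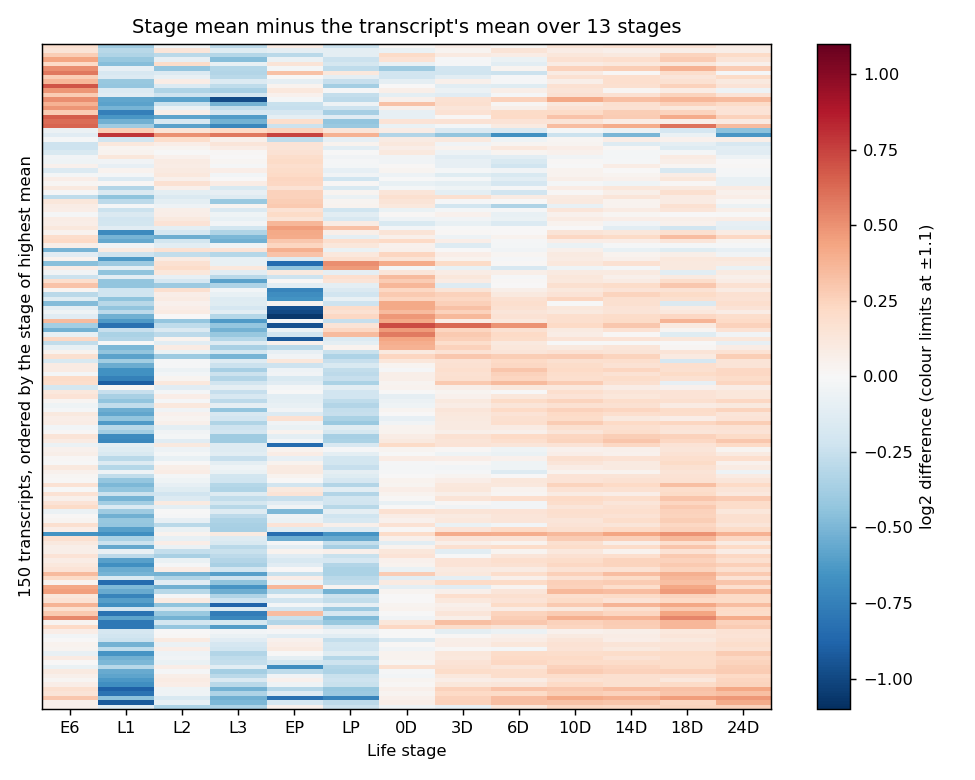
Stage mean minus the transcript's own mean over 13 stages (colour, log2 units, limits at ±1.1) for the 150 members in lines and the 13 stages in columns, with members ordered by the stage of their highest mean. The L1 column is low for most members, the 19 members highest in eggs are at the top, and the 41 members highest at 18 days lie towards the bottom.

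Steps of 1 log2 unit between neighbouring stages were few in the members. Between eggs and L1, 13 members were lower in L1 by at least that amount and 0 were higher, while 58.2% of all transcripts moved by as much in either direction. Between L3 and early pupae 2 members were higher in early pupae (10.5% of all transcripts moved), and between early and late pupae 5 were higher in late pupae (21.4%). Between L1 and L2 it was 1 member, higher in L2 (4.7%). At the other 8 steps the count was 0. Among these were late pupae to 0 days, where 30.9% of all transcripts moved, and 0 to 3 days, where 5.73% did. These counts have no test, since the stage means chose the members.

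The members stood less low in L1 when the narrow arrays were left out. Those arrays were picked by a small SD over values that include the members. The change is tied to that choice and is a description. The members' median difference between L1 and the mean of the other stages was −0.49, and it was −0.05 when the 20 narrow arrays were left out. No Punta Prieta array on organ pipe then remained in L1 or L3, so those stage means rest on 3 of the 4 groups. Without them the median stage mean was 14.83 in L1, 14.90 in L2, 14.76 in L3 and 14.75 in early and in late pupae. L1 was then the lowest stage for 7 members in place of 81, L3 for 34, early pupae for 30 and late pupae for 28. Of the 14 L1 arrays 7 are narrow.

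**Figure D2:**
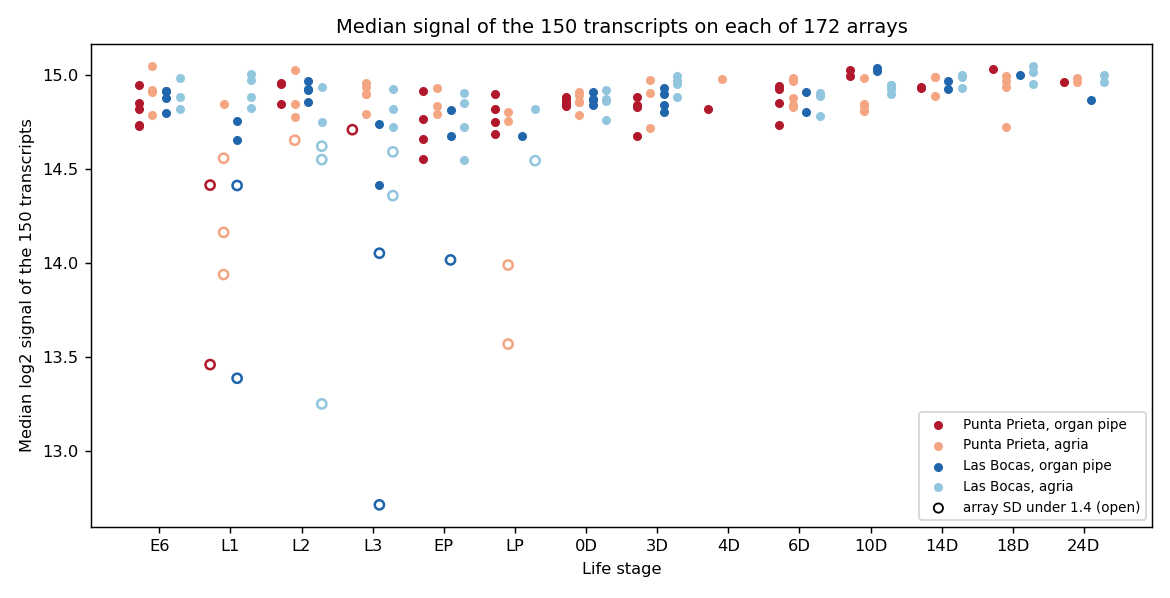
Median log2 signal of the 150 members on each of the 172 arrays (points), by life stage, population and diet, with narrow arrays as open circles. The 20 narrow arrays run from 12.72 to 14.71 and lie in larvae and pupae only, and the other 152 arrays run from 14.42 to 15.05.

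The members' median on an array was 12.72 to 14.71 on narrow arrays (median 14.26, 20 arrays) and 14.42 to 15.05 on the others (median 14.89, 152 arrays). The number of members within the top 5% of all transcripts was 31 to 147 on narrow arrays and 131 to 150 on the others. By phase, the members' median ran from 14.73 to 15.05 in 16 egg arrays, 12.72 to 15.02 in 45 larval arrays, 13.57 to 14.93 in 25 pupal arrays and 14.68 to 15.05 in 86 adult arrays. Only larval and pupal arrays, of all 172, had a median below the lowest adult value.

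The lowest array was replicate 2 of Las Bocas L3 on organ pipe. The members' median there was 12.72, 31 of them were in the top 5%, and their median exceeded 84.8% of all transcripts. Against the mean of the 3 other arrays of its group, 105 members were lower by more than 1 log2 unit and 67 by more than 2, and 14 were higher. Of all 14528 transcripts 280 were lower by more than 2, and the median over all was 0.10 higher. FBtr0174423 was 10.33 on that array against 14.60 on the others, and FBtr0165927 was 9.87 against 13.95. FBtr0166368, 1 of the first 6 ranks, was 15.60 against 15.34, so not every member was lower.

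Of the narrow arrays, 17 share a group with arrays that are not narrow, in 9 groups. On all 17 the members' median was lower than in those other arrays, by a shift of −1.99 to −0.21 (median −0.44), and between 124 and 143 of the members lay below. The median shift of all transcripts was between −0.24 and 0.16. The transcripts ranked 151 to 300 had a median shift of −0.54, so these moved lower too. Narrow arrays were picked by a small SD over all values, members included. The direction of these shifts is therefore not independent of that choice and is a description. On the array with the largest shift, replicate 2 of Las Bocas L3 on organ pipe, the highest value of all transcripts was 15.84. It was 15.79 to 15.80 on the other arrays of its group. The shift was not the same for each member: 142 had a mean shift below 0 over the 17 arrays, 22 of them below −1, and 8 had one above 0. FBtr0171262 had the lowest mean shift, −1.47, and FBtr0165927 had −1.40. FBtr0165401 was higher on every one of the 17 arrays, with a mean shift of 0.35, and 81 members were lower on every one.

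**Figure D3:**
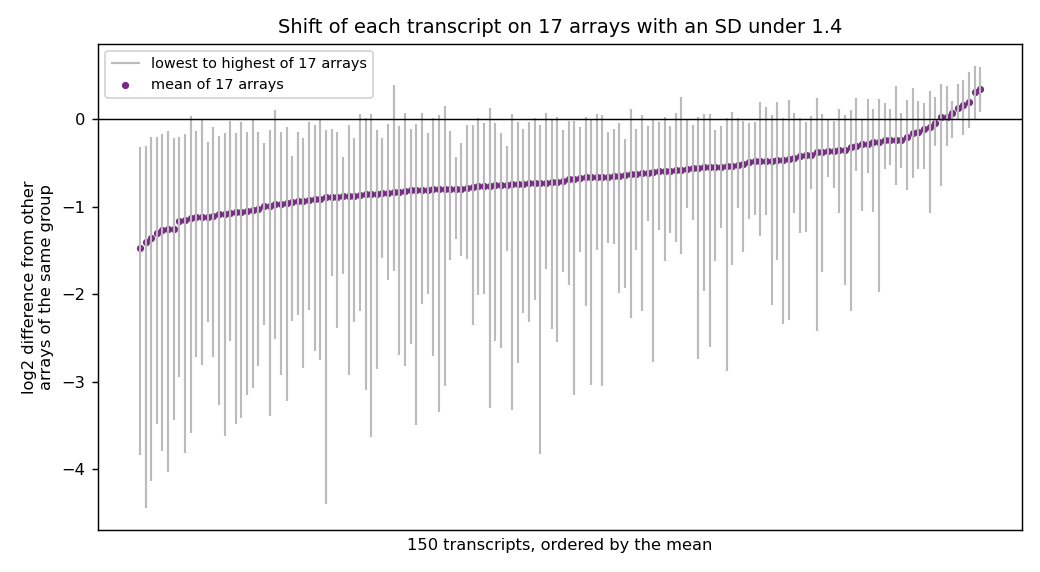
Shift of each of the 150 members on 17 narrow arrays relative to the arrays of the same group that are not narrow (log2 difference), ordered by the mean. Points are means over the 17 arrays and lines run from the lowest to the highest array. Of the 150 means 142 are below 0, and the 8 above 0 reach 0.35.

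The 8 members with a mean shift above 0 include 4 of the first 6 ranks. FBtr0166368 had a mean shift of 0.32, FBtr0171770 of 0.20, FBtr0166212 of 0.13 and FBtr0161682 of 0.08. Across the 150 members the shifts on 2 narrow arrays of different groups had correlations from −0.10 to 0.88 (median 0.42 over 126 pairs, 123 of them positive). The arrays share their probes and their processing, and the members are not independent of each other, so this is a description. What made these arrays narrow was not tested, and the labels give no slide, scan or RNA quality.

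The members' spread within groups was also smaller without the narrow arrays. These arrays were picked after the data were seen, and the members' median was lower on all 17 that could be compared. A smaller spread without them is tied to that choice and is a description. The pooled SD within groups had a median of 0.31 over the members, 0.36 over all transcripts and 0.29 over ranks 151 to 300. Without the narrow arrays the medians were 0.15 for the members, 0.32 for all transcripts and 0.18 for ranks 151 to 300. By stage, the members' median SD was 0.18 in eggs, 0.46 in L1, 0.42 in L2, 0.55 in L3, 0.24 in early pupae and 0.41 in late pupae. It was at most 0.14 at each of the 7 adult ages, where that of all transcripts was 0.21 to 0.28. Without narrow arrays the larval and pupal values were 0.14 to 0.16. In the members 43.4% of the variance lay within groups and 33.5% between stages, against 14.7% within groups and 76.3% between stages over all transcripts. In ranks 151 to 300 it was 28.7% within groups and 53.0% between stages. The share between stages uses the means that chose the members.

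Deviations from the group mean moved together in the members. The mean correlation between pairs of members over 164 arrays in groups of at least 2 was 0.53, against 0.0072 for all transcripts. It was 0.60 in larvae and 0.13 in adults, and 0.15 over all stages without narrow arrays. The transcripts ranked 151 to 300 moved together too, at 0.40 over all arrays, 0.46 in larvae, 0.09 in adults and 0.15 without narrow arrays. These correlations are across arrays that share their processing and are given with no test.

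The 2 arrays of 4-day females were outside the rule. All 150 members reached the limit of rank 150, 13.70, on both of them, as did 1077 of the other 14378 transcripts on the organ pipe array and 1015 on the agria array. The lowest member on the organ pipe array was FBtr0169811 at 13.80, which exceeded 92.8% of all transcripts. On the agria array it was FBtr0170586 at 13.87, which exceeded 93.5%. The members' medians were 14.82 on organ pipe and 14.98 on agria, with 1 array each and no replicate check.

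The list itself changed with how the rule was applied. When the 150 were chosen again, 132 members were shared with a choice from Punta Prieta groups alone and 137 from Las Bocas groups alone, and 132 with a choice from organ pipe groups alone and 136 from agria groups alone. Without the narrow arrays 127 were shared. When transcripts were ranked by their lowest single array, 72 were shared, and 102 members have their lowest value on the same array, replicate 2 of Las Bocas L3 on organ pipe. On at least 1 array 57 members fell out of the top 25% of transcripts. Over 16 such choices 51 members were kept in each, and the first 6 ranks were among them. FBtr0165201 was lost from the choices of Las Bocas groups alone and agria groups alone, and after repeated quantile normalization. FBtr0171274 was lost from the choice of Punta Prieta groups alone.

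Differences between populations and diets were tested with limma in a fit over all 172 arrays, with p-values adjusted over all 14528 transcripts and a call at an adjusted p under 0.05. The stage means weigh the 4 combinations equally, so these differences are not what chose the members. The fit holds a single spread per transcript for all stages. P-values for a phase therefore do not measure the spread of that phase alone.

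Few members were called between populations over life. Averaged over the 13 stages and both diets, 4 of 150 members were called, 2 higher and 2 lower in Punta Prieta, while 18.1% of all transcripts were called. The members' median absolute difference was 0.024 log2 units, against 0.076 over all transcripts, at median standard errors of 0.054 and 0.061. The spread behind these calls includes the narrow arrays, and the members' median SD within groups was 0.31 with them and 0.15 without. The count was 8 with array weights (29.3% of all transcripts) and 9 with the array SD as a covariate (23.9%). It was 2 to 7 when 1 replicate number was left out. Whether signals near the top of the range held differences down was not tested. The calls higher in Punta Prieta were FBtr0165201 and FBtr0168602, and those lower were FBtr0171274 and FBtr0172795.

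FBtr0165201 carried the most certain difference among the members. Over life it averaged 14.10 ± 0.24 in Punta Prieta (SD, n = 88) and 13.77 ± 0.27 in Las Bocas (SD, n = 82), a fitted difference of 0.34 (SE 0.036, limma adjusted p = 7.89e-14) with the same sign at 11 of 13 stages. The fit weighs stages and diets equally, so its differences can depart slightly from those of the plain means. In adults the lowest, median and highest values were 13.49, 14.19 and 14.53 in Punta Prieta (45 arrays) and 13.26, 13.61 and 14.08 in Las Bocas (39 arrays). The adult difference was 0.55 (SE 0.051, adjusted p = 2.45e-16) and had the same sign at 7 of 7 ages.

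At 3, 10, 18 and 24 days the 2 populations did not overlap in FBtr0165201, and at 0, 6 and 14 days they did. At 10 days the 6 Punta Prieta arrays ran from 14.00 to 14.45 (median 14.29) and the 6 Las Bocas arrays from 13.26 to 13.70 (median 13.48). At 24 days the 3 Punta Prieta arrays were 14.20, 14.20 and 14.24, and the 3 Las Bocas arrays were 13.76, 13.55 and 13.44. Punta Prieta was thus the higher population on both diets at these ages. In larvae it was not called (difference 0.02, SE 0.069), with 13.85 ± 0.17 in Punta Prieta (SD, n = 19) and 13.85 ± 0.28 in Las Bocas (SD, n = 26).

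The difference of FBtr0165201 in adults exceeded that in larvae by 0.53 (SE 0.086, limma adjusted p = 1.68e-05). The other member called in that comparison was FBtr0161166, with a signed change of 0.31 (adjusted p = 0.0151) from a difference of 0.08 in adults and −0.23 in larvae. It was called in larvae, where it averaged 13.74 ± 0.19 in Punta Prieta (SD, n = 19) and 13.96 ± 0.38 in Las Bocas (SD, n = 26), and not in adults, with means of 14.61 in Punta Prieta and 14.57 in Las Bocas. Both calls in this comparison were higher, 2 of 150 members, against 7.64% of all transcripts called in either direction and 4.43% called higher. The FBtr0161166 call was lost under 2 of 15 alternatives, with an adjusted p of 0.108 without the arrays numbered replicate 1 and 0.212 without those numbered replicate 2.

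**Figure D4:**
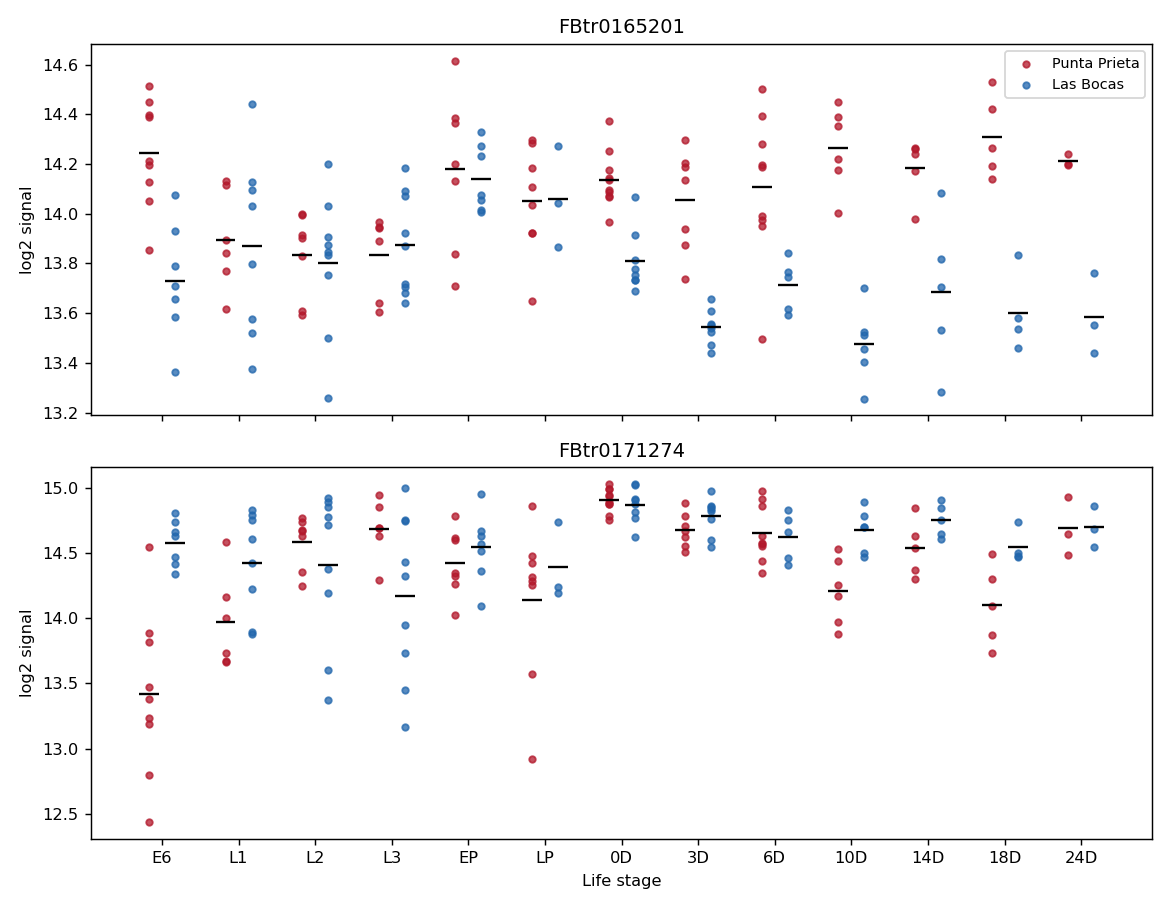
Log2 signal of FBtr0165201 (top) and FBtr0171274 (bottom) on each array by life stage, with Punta Prieta in red at the left and Las Bocas in blue at the right of each stage, and lines at the means of the arrays. FBtr0165201 is separated at 3, 10, 18 and 24 days, and FBtr0171274 has its largest gap in eggs, with means of 13.42 in Punta Prieta and 14.58 in Las Bocas.

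In eggs 4 of 150 members were called between populations, against 4.89% of all transcripts. FBtr0171274 had the largest difference of any member in any of the 13 comparisons, −1.16 (SE 0.16, limma adjusted p = 2.41e-07). Its values in eggs on organ pipe were 13.47, 13.89, 13.82, 12.80 and 13.38 in Punta Prieta and 14.66, 14.74, 14.47 and 14.63 in Las Bocas. On agria they were 12.44, 14.55, 13.24 and 13.19 in Punta Prieta and 14.34, 14.81 and 14.42 in Las Bocas. Of the 9 Punta Prieta arrays 1 lay within the Las Bocas range and the other 8 lay below it. The call held under each of 32 alternatives. Over life the difference was −0.22 (adjusted p = 0.00221), and it was −0.14 with an adjusted p of 0.0977 when eggs were left out of the average.

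FBtr0165201 also differed in eggs, by 0.48 (SE 0.11, adjusted p = 0.00128), with lowest, median and highest values of 13.86, 14.21 and 14.51 in Punta Prieta (9 arrays) and 13.36, 13.71 and 14.08 in Las Bocas (7 arrays). The ranges overlapped. The third-ranked member, FBtr0166212, was lower in Punta Prieta eggs, with 15.07 ± 0.30 (SD, n = 9) against 15.41 ± 0.21 in Las Bocas eggs (SD, n = 7), a difference of −0.35 (limma adjusted p = 0.00433). Its pooled SD within groups over all stages was 0.15. The FBtr0166212 call was kept under 29 alternatives and lost under 3. The fourth call in eggs, FBtr0168602, was 0.24 higher in Punta Prieta (adjusted p = 0.0491) and was lost under 17 alternatives.

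In larvae 2 of 150 members were called between populations, both lower in Punta Prieta (5.49% of all transcripts called, 3.01% lower), in pupae 0 (1.48%; 0 members and 2324 transcripts at an unadjusted p under 0.05) and in adults 2 (15.1%). The larval calls were FBtr0161166, at −0.23 (adjusted p = 0.032), and FBtr0166731, at −0.30 (adjusted p = 0.0472). Leaving out single larval arrays moved this count by more than 1.5 times for 18 of 44 arrays, and 5 of these left 0 calls. The second adult call was FBtr0169811, with 14.16 ± 0.20 in Punta Prieta (SD, n = 45) and 14.35 ± 0.14 in Las Bocas (SD, n = 39). Its difference of −0.19 (limma adjusted p = 0.0308) had the same sign at 7 of 7 ages, and the call was lost under 8 of 23 alternatives. The adjusted p was 0.0577 without 3 days in the average, 0.0781 without 6 days, 0.196 without 10 days, 0.0702 without 14 days and 0.058 without 18 days. It was 0.156 without the arrays numbered replicate 1, 0.164 without replicate 2 and 0.0614 without replicate 3.

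For diet, 0 of 150 members were called over life (limma; 0.441% of all transcripts called), 0 in eggs (0.0%), 0 in pupae (0.42%) and 0 in adults (1.84%). At an unadjusted p under 0.05 there were 6 members and 1583 of all 14528 transcripts over life, 4 members and 152 transcripts in eggs, 0 members and 1858 transcripts in pupae, and 1 member and 1811 transcripts in adults. The median absolute difference of the members in adults was 0.021, against 0.077 over all transcripts. For the interaction of diet and population over life the count was also 0 (0.0895% of all transcripts called), with 3 members and 1258 transcripts at an unadjusted p under 0.05.

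In larvae 14 of 150 members were called between diets, all lower on organ pipe, against 4.74% of all transcripts called in either direction and 3.88% called lower. The spread in this fit is shared with the adults, where the members' median SD was at most 0.14. It was 0.46 in L1, 0.42 in L2 and 0.55 in L3, so the p-values understate the larval spread. With larval arrays alone no member was called. The members' median difference was −0.24, and 135 of 150 were negative, while the median over all transcripts was 0.03. At an unadjusted p under 0.05 there were 93 of 150 members and 3898 of 14528 transcripts. FBtr0168808 had the largest difference among those called, with 13.98 ± 1.23 on organ pipe (SD, n = 18) and 14.52 ± 0.64 on agria (SD, n = 27), or −0.53 (SE 0.16, limma adjusted p = 0.0375). FBtr0174399 differed by −0.43 (adjusted p = 0.033).

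The instars did not move one way. For FBtr0168808 the lowest, median and highest values in L1 were 11.64, 13.90 and 14.59 on organ pipe and 13.16, 14.78 and 15.13 on agria. In L2 they were 14.67, 14.81 and 14.97 on organ pipe and 12.28, 14.71 and 14.98 on agria. In L3 they were 10.92, 14.04 and 14.68 on organ pipe and 14.10, 14.80 and 15.01 on agria. The ranges overlapped at each instar, and the lowest values lay on organ pipe in L1 and L3 and on agria in L2.

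The members' median diet difference followed the same signs, at −0.55 in L1, 0.27 in L2 and −0.44 in L3. Narrow arrays were spread over the diets as 4 of 6 organ pipe and 3 of 8 agria arrays in L1, 0 of 7 organ pipe and 4 of 9 agria arrays in L2, and 3 of 5 organ pipe and 2 of 10 agria arrays in L3. In pupae the median was −0.18 in early pupae, with 1 of 7 narrow arrays on organ pipe and 0 of 7 on agria, and 0.22 in late pupae, with 0 of 5 on organ pipe and 3 of 6 on agria. At each of these 5 stages the diet with the larger share of narrow arrays had the lower median. Narrow arrays were picked by a small SD over values that include the members. This match is tied to that choice and is a description. The part of those arrays in the difference was not tested. Over the 4 groups it cannot be told apart in L1 and L3, because no Punta Prieta array on organ pipe is left without them. In Las Bocas, arrays that are not narrow remain on both diets. Their members' medians in L1 were 14.65 and 14.75 on organ pipe and 14.82 to 15.00 on agria. In L3 the medians were 14.42 and 14.74 on organ pipe and 14.72 to 14.92 on agria, with no test. In adults, which have no narrow arrays, the median diet difference lay between −0.08 and 0.09.

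**Figure D5:**
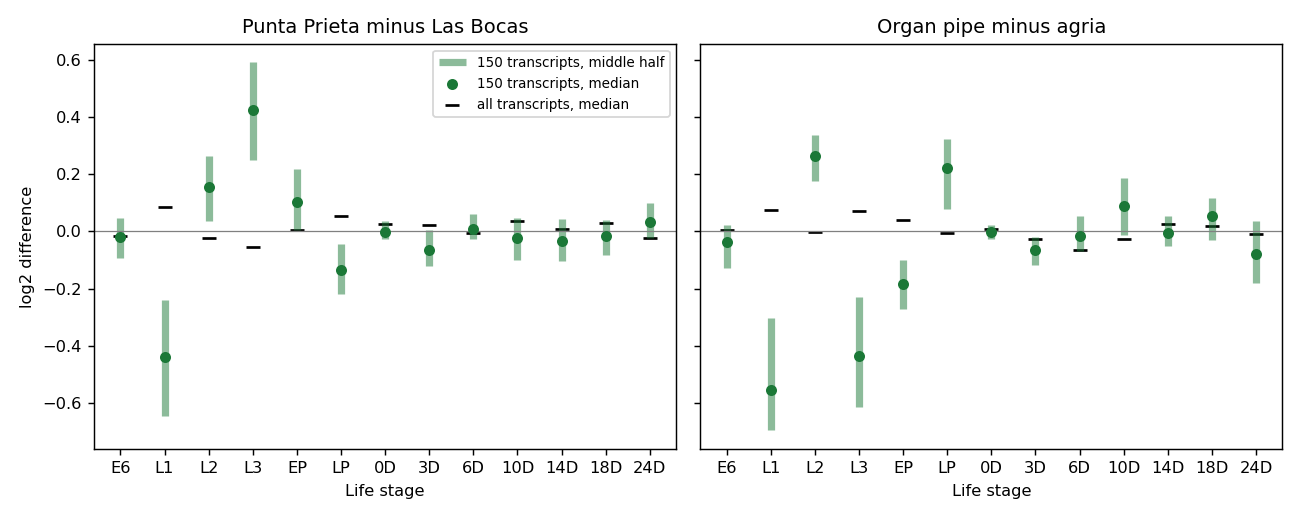
Median log2 difference of the 150 members (green points, with bars from the 25th to the 75th percentile of members) and of all transcripts (black dashes) at each stage, for Punta Prieta minus Las Bocas (left) and organ pipe minus agria (right). The members' medians reach −0.55 and 0.43 in larvae and stay within ±0.09 in adults.

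Without the narrow arrays 0 members and 0.282% of all transcripts were called for diet in larvae, where FBtr0168808 differed by −0.03 (limma adjusted p = 0.903) and FBtr0174399 by 0.03 (adjusted p = 0.912). That comparison then rests on L2 alone, where the members' median was 0.03, because no Punta Prieta array on organ pipe is left in L1 or L3. The early pupal median was then −0.07 and the late pupal one −0.08, and 10 members were called lower on organ pipe in pupae, where 20.3% of all transcripts were called. The larval count was also 0 with the array SD as a covariate, where 0.606% of all transcripts were called. The members' median diet difference in that setting was −0.16, against 0.02 over all transcripts. The covariate is taken over all values, members included. The larval count was 75 without replicate 4 of Las Bocas L2 on agria, the second lowest array, where 11.9% of all transcripts were called. Leaving out 1 larval array moved it by more than 1.5 times for 28 of 44 arrays.

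The population differences at single larval and pupal stages are given with the counts of narrow arrays in the same way. The members' median was −0.44 in L1, where 5 of 6 Punta Prieta and 2 of 8 Las Bocas arrays were narrow. It was 0.15 in L2, with 1 of 7 Punta Prieta and 3 of 9 Las Bocas arrays narrow, and 0.43 in L3, with 1 of 6 Punta Prieta and 4 of 9 Las Bocas arrays. In early pupae it was 0.10, with 0 of 7 Punta Prieta arrays and 1 of 7 Las Bocas arrays. In late pupae it was −0.13, where 2 of 8 Punta Prieta and 1 of 3 Las Bocas arrays were narrow. These lay on agria, as 2 of 4 Punta Prieta and 1 of 2 Las Bocas arrays. The difference weighs the 4 groups equally, so the pooled counts do not give the weight of the narrow arrays. Their part was not tested. In adults it lay between −0.06 and 0.03.

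The signed diet difference in adults minus that in larvae was called in 2 of 150 members, both positive, with 5.8% of all transcripts called and 4.01% called higher. It was 0.45 for FBtr0174494 (limma adjusted p = 0.0355), with 0.04 in adults and −0.40 in larvae. For FBtr0172795 it was 0.41 (adjusted p = 0.0201), with 0.09 in adults and −0.33 in larvae. In both, the diets were further apart in larvae than in adults. In larvae FBtr0174494 averaged 13.88 ± 0.73 on organ pipe (SD, n = 18) and 14.31 ± 0.56 on agria (SD, n = 27), and in adults 14.79 ± 0.18 on organ pipe (SD, n = 35) and 14.74 ± 0.14 on agria (SD, n = 49). Without the narrow arrays the signed change of FBtr0174494 was 0.33 (adjusted p = 0.292) and that of FBtr0172795 was 0.39 (adjusted p = 0.251), with the larval side resting on L2 alone.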

How the data were processed

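The authors deposited 1 table of log2 values for 172 arrays, and the submitters' processing notes name RMA. Its version is not given in the sources used, and neither are the arrays it covered. Labels' protocols give RNA extraction with a column kit and Cy3 labelling of double-stranded cDNA. The members and the comparisons were chosen with earlier results of these data known. Stage means and ranks were computed from the log2 values as deposited. Population, diet and interaction contrasts were estimated by limma (version 3.58.1, under R 4.3.3), with lmFit, eBayes, 1 mean per group, 118 residual degrees of freedom and Benjamini-Hochberg adjustment over 14528 transcripts. Phases average their stages equally. The error of single-array groups comes from the spread in the others. The fit was tested on simulated data with independent normal errors and a single SD per transcript for all stages. That test does not cover shifts shared by the members of an array or a spread that differs by stage. Replicate 1 of Las Bocas on agria at 14 days has 1 label of 10 days and was kept at 14. Named members were the first 6 ranks, the 3 on each side of the limit, extremes of span, spread and stage level, and the called members with the largest changes, at most 2 each way per comparison; transcripts extreme on narrow arrays were chosen after their values were seen. No ID matched the annotation table (0 matched), so gene lists were not run and no sequences are shown. Array number limits the precision. Alternatives were other scalings, array weights, the array SD as a covariate, filters, subsets of arrays and a replicate block.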

Additional observations from a re-analysis of the deposited data

Results flagged for a closer look

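The members' median on replicate 4 of Las Bocas L2 on agria was 13.25, while the other 4 arrays of that group ran from 14.55 to 14.94. Of the 28 groups of 4 or more arrays that were tested for a distant array, 1 had one, and chance alone marks about 1 in 20 groups. The signed population difference (Punta Prieta minus Las Bocas) in adults minus that in larvae was 0.53 for FBtr0165201, which differed by 0.55 in adults and 0.02 in larvae. It was 0.31 for FBtr0161166, whose difference was 0.08 in adults and −0.23 in larvae, so its populations were further apart in larvae. The signed diet difference (organ pipe minus agria) in adults minus that in larvae was 0.45 for FBtr0174494, with 0.04 in adults and −0.40 in larvae, and 0.41 for FBtr0172795, with 0.09 in adults and −0.33 in larvae. For both, the diets were further apart in larvae. These 4 signed changes passed the limma test of the change itself, and both diet calls were lost without the narrow arrays, where the larval side rests on L2 alone.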

How the results depend on the processing

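Values are counts of called members, with the reported count first in brackets. Shares in brackets are of all transcripts called in the same setting. Population over life (4; 18.1%): 7 with repeated quantile normalization (14.4%), 8 with array weights (29.3%), 9 with the array SD as a covariate (23.9%) and 9 without narrow arrays (23.5%). Population in eggs (4; 4.89%): 8 with weights (21.8%), 2 with egg arrays alone (6.75%), 7 without narrow arrays (7.14%). Population in larvae (2; 5.49%): 1 with centred medians (5.58%), 7 with weights (16.5%), 4 with the covariate (9.51%), 10 with stages of at least 2 arrays per group (9.78%), 0 with larval arrays alone (2.58%), 1 without narrow arrays (1.34%). Population in adults (2; 15.1%): 5 with quantile normalization (9.99%), 9 with weights (33.6%), 5 with the covariate (20.0%), 16 with adult arrays alone (29.6%), 1 without 6 (10.6%), 10 (4.01%) or 18 days (11.6%), 9 without narrow arrays (19.9%). Diet over life (0; 0.441%): 2 with weights (8.69%), 1 without L2 (1.23%), 2 without narrow arrays (2.21%). Diet in larvae (14; 4.74%): 85 with weights (18.8%), and 0 with the covariate (0.606%), stages of at least 2 arrays (0.0895%), larval arrays alone (0.0%) or no narrow arrays (0.282%), where FBtr0174399 turned to a log2 difference of 0.0319. Diet in pupae (0; 0.42%): 1 with stages of at least 2 arrays (1.88%), 10 without narrow arrays (20.3%). Diet in adults (0; 1.84%): 1 with weights (18.1%) and 1 with adult arrays alone (5.48%). Adults minus larvae gave for population (2; 7.64%) 5 with weights (23.4%), 8 with stages of at least 2 arrays (10.3%) and 4 without narrow arrays (1.79%), and for diet (2; 5.8%) 64 with weights (27.2%), 1 with such stages (1.77%), 0 without narrow arrays (0.248%), 0 with the covariate (0.516%) and 4 without the dimmest 25% of transcripts (8.93%). Without narrow arrays life averages hold 11 stages and larval contrasts L2 alone. Leaving out 1 replicate number or array gave 2 to 7 for population over life, 2 to 5 in eggs, 0 to 4 in larvae, 0 in pupae and 1 to 3 in adults; 0 for diet over life, in eggs and in adults, 0 to 75 in larvae and 0 to 4 in pupae; for adults minus larvae 1 to 3 (population) and 0 to 5 (diet); 0 for the interaction; and 138 to 147 shared members. Ranking by the lowest single array shared 72, and the spread was 0.151 without narrow arrays. The cause of these moves was not tested. Same-numbered replicates did not deviate together (mean r −0.058 to 0.00049), so replicate numbers were not taken as pairs. With the replicate number as a replicate block, population counts were 4 over life (17.8%), 4 in eggs (4.52%), 3 in larvae (5.18%), 0 in pupae (0.957%) and 2 in adults (14.9%). Diet counts were 21 in larvae (7.34%), and 0 over life (0.475%), in eggs (0%), in pupae (0.344%) and in adults (1.51%). The adult minus larval counts were 3 for population (7.62%) and 3 for diet (5.39%). The narrow-array setting was chosen after seeing the data. FBtr0165201 kept its 4 calls under every alternative run.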

Other observations

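The transcripts ranked 151 to 300 by the same rule had a lowest-stage mean of 13.24 to 13.70, and on the 4-day arrays 98 of them on organ pipe and 109 on agria were in the top 5% of transcripts, against 143 and 147 of the members. The mean correlation of their deviations within groups was 0.40 over all arrays and 0.15 without narrow arrays.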
